A study of Mus musculus with 2 samples.

Results

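Layer 6 corticothalamic-like neurons were taken from 2 single-cell RNA libraries of E16.5 mouse cerebral cortex by a rule on 8 genes. A cell was a member where it held at least 1 UMI (unique molecular identifier, the tag of a single captured mRNA molecule) of *Tbr1* and at least 1 UMI of 2 or more of *Foxp2*, *Tle4* and *Hs3st4*, and no UMI of *Nr4a2*, *Eomes*, *Gad1* or *Gad2*. Only barcodes with 1500 to 60000 UMIs and under 10% of UMIs from mitochondrial genes were considered. The rule found 390 members among 16213 cells, 180 of 5966 in library 1 and 210 of 10247 in library 2. The members made up 3.02% of cells in library 1 (95% exact Clopper-Pearson interval 2.60 to 3.48%) and 2.05% in library 2 (1.78 to 2.34%), a mean of 2.53% ± 0.684 (SD, n = 2).

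Both libraries came from papain-dissociated cortices of WT embryos that the labels call EomesDot controls, and there was no other genotype, treatment or age. The labels do not spell out EomesDot, and the study's supplement names C57BL/6J mice for its E16.5 cortices. No sort or gate is named. The labels do not state that the libraries came from separate animals, so p-values measure the spread between these libraries only, which may be technical. Library 1 held 9049 barcodes and 46398156 UMIs, library 2 held 13556 barcodes and 64324236 UMIs, and the median cell held 5706 and 4938 UMIs. The libraries shared 40 barcode sequences, 21 of them among the cells considered and 0 among the members.

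Corticothalamic neurons are the excitatory neurons of the deepest cortical layer that send their axons to the thalamus. They are born early, together with other deep-layer neurons, and *Tbr1*, a T-box transcription factor, is required for their identity. *Tle4*, a transcriptional corepressor, *Foxp2*, a forkhead factor, and *Hs3st4*, an enzyme that modifies heparan sulfate, are used as markers of this layer. *Fezf2* and *Bcl11b* (also called CTIP2) direct the subcerebral neurons of layer 5. At E16.5 layer 6 neurons have settled in the cortical plate, while younger neurons bound for the upper layers are still migrating through it.

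*Tbr1* was detected in 1407 and 2219 cells of libraries 1 and 2, and 337 and 372 of these also held at least 2 of *Foxp2*, *Tle4* and *Hs3st4*. The genes that had to be absent then removed cells that overlapped one another in part. *Gad1* or *Gad2* was found in 62 and 84 of them, *Eomes* in 79 and 67, and *Nr4a2* in 42 and 36. The 4 ways of meeting the rule were unequally filled. All 3 marker genes were present in 68 members (37.8%) of library 1 and 92 (43.8%) of library 2. *Foxp2* and *Tle4* without *Hs3st4* were present in 73 (40.6%) and 89 (42.4%), so that over 40% of the members had no *Hs3st4* UMI. *Tle4* and *Hs3st4* without *Foxp2* accounted for 35 (19.4%) and 25 (11.9%) members, and *Foxp2* and *Hs3st4* without *Tle4* for 4 in each library.

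**Figure D1:**
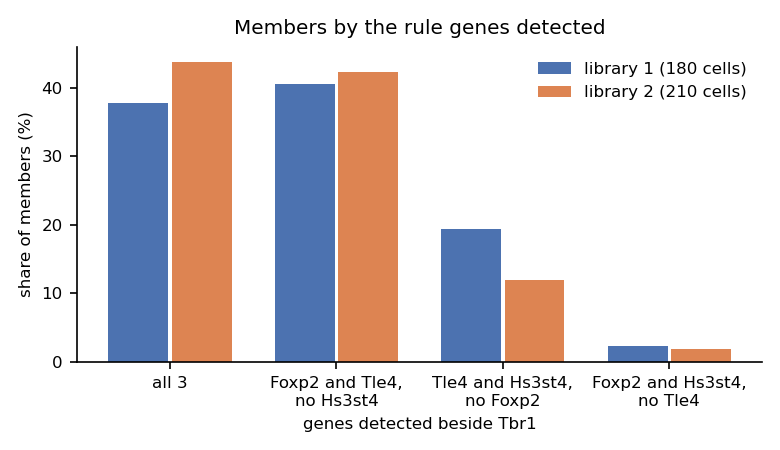
Share of members (%, vertical axis) by which of *Foxp2*, *Tle4* and *Hs3st4* were detected beside *Tbr1*, for library 1 (180 members) and library 2 (210 members). The combinations with all 3 genes and with *Foxp2* and *Tle4* alone each hold 37.8 to 43.8% of members, and 3-gene cells and *Hs3st4*-free cells are thus about equally common.

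Detection rested on few molecules for *Tbr1* and on many for *Hs3st4*. *Tbr1* stood at a single UMI in 72 of 180 members of library 1 and 120 of 210 of library 2, with a highest value of 10 and 7 UMIs. *Hs3st4* stood at 0 in 73 and 89 members and at a single UMI in only 13 and 13, while the highest members held 69 and 54 UMIs. Most members were therefore either without *Hs3st4* or held 2 or more UMIs of it (94 and 108 members). In cells with *Gad1* or *Gad2* at 2 or more UMIs and no *Tbr1* (called GABAergic here, 1490 and 2316 cells), *Foxp2* was found in 40.4% ± 0.351 (SD, n = 2) of cells and *Tle4* in 40.8% ± 0.744, against 4.32% ± 0.435 for *Hs3st4*, at a median depth of 4311.5 and 4513.5 UMIs against 7246 and 6409.5 in the members. Of the marker genes of the rule, *Hs3st4* was thus the least often found in GABAergic cells, and the detected shares of *Foxp2* and *Tle4* in the members are fixed by the rule.

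The rule genes chose the members, and their levels are given as a description. In counts scaled to a total of 1e6 UMIs of the summed cells (CPM), *Tbr1* (chromosome 2, 61802863 to 61814114, in GRCm38 coordinates of RefSeq) stood at 283 and 246 in the members of libraries 1 and 2. *Foxp2* (chromosome 6, 14901349 to 15441977) stood at 561 and 562, *Tle4* (chromosome 19, 14448072 to 14598183) at 774 and 729, and *Hs3st4* (chromosome 7, 123982366 to 124398989) at 1008 and 902. Just outside the rule were 302 and 461 cells with *Tbr1* and exactly 1 of the marker genes, the other conditions being met. Their *Tbr1* stood at 228 and 234 CPM, near the members, whereas *Tle4* was at 155 and 156, *Foxp2* at 69.2 and 101, and *Hs3st4* at 6.92 and 24.5 CPM. Inside it, the members with exactly 2 marker genes had *Tbr1* at 267 and 235 CPM, *Tle4* at 339 and 304 and *Hs3st4* at 259 and 178.

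*Zfpm2* (also called FOG2), a zinc finger cofactor used as a marker of corticothalamic neurons, was not part of the rule and served as its check. It lies on chromosome 15 at 40655042 to 41104592. *Zfpm2* reached 533 and 497 CPM in the members, and it stood at 38.5 and 33.5 in cells chosen by upper-layer genes, among them at least 2 of *Cux1*, *Cux2* and *Pou3f2* (upper-layer-like, 691 and 1310 cells). It was at 460 and 332 CPM in cells with *Bcl11b* and *Fezf2* and no *Tbr1* (layer 5-like, 81 and 127 cells), and at 78.8 and 77.1 CPM in GABAergic cells. Unthinned, 61.1 and 61.0% of members held a *Zfpm2* UMI, with 14.8 and 15.6% of GABAergic and 9.99 and 9.01% of upper-layer-like cells. With every cell thinned to 1500 UMIs, which left out no cell, the share was 38.3% (31.2 to 45.9%) and 36.2% (29.7 to 43.1%) in the members and 38.3% (27.7 to 49.7%) and 33.1% (25.0 to 42.0%) in layer 5-like cells. It was 3.33 and 2.82% in upper-layer-like and 6.85 and 6.61% in GABAergic cells. The intervals of members and layer 5-like cells overlapped, and both lay far above the other classes. Intervals cover counting error only.

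Within the members the *Zfpm2* share followed *Hs3st4*. Thinned, *Zfpm2* was found in 55.1% (45.2 to 64.8%) and 57.0% (47.7 to 66.0%) of *Hs3st4*-positive members, and in 13.7% (6.77 to 23.8%) and 7.87% (3.22 to 15.5%) of *Hs3st4*-negative members. The latter intervals include the GABAergic share of 6.85 and 6.61%, but in library 1 the share lay above the interval of upper-layer-like cells (2.12 to 4.95%), and in library 2 the intervals overlapped (2.0 to 3.87% in upper-layer-like cells). Unthinned, 38.4 and 24.7% of *Hs3st4*-negative members held *Zfpm2*, more than the 14.8 and 15.6% of GABAergic cells, at a greater median depth (7328 and 6673 against 4311.5 and 4513.5 UMIs). *Neurod6*, a transcription factor of cortical excitatory neurons, was found unthinned in 94.4 and 90.1% of *Hs3st4*-positive and 91.8 and 92.1% of *Hs3st4*-negative members, against 18.1 and 23.5% of GABAergic cells. Both sets of members were thus excitatory neurons by this gene, and they differed in *Zfpm2*.

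The other layer genes of the fixed list showed where the members stood. *Sox5*, a factor of early-born deep-layer neurons, stood at 1704 and 2000 CPM in the members, 1502 and 1622 in layer 5-like and 491 and 446 in upper-layer-like cells, and 15 and 19 members held none of it. *Bcl11b* stood at 424 and 443 CPM in the members, against 540 and 529 in layer 5-like cells, which were chosen by it, and 36 and 51 members held none. *Fezf2* stood at 70.2 and 69.5 CPM against 180 and 227, and 131 and 145 members held none. *Bcl11b* and *Fezf2* were found together in 40 and 54 members, *Bcl11b* without *Fezf2* in 104 and 105, *Fezf2* without *Bcl11b* in 9 and 11 and neither in 27 and 40.

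**Figure D2:**
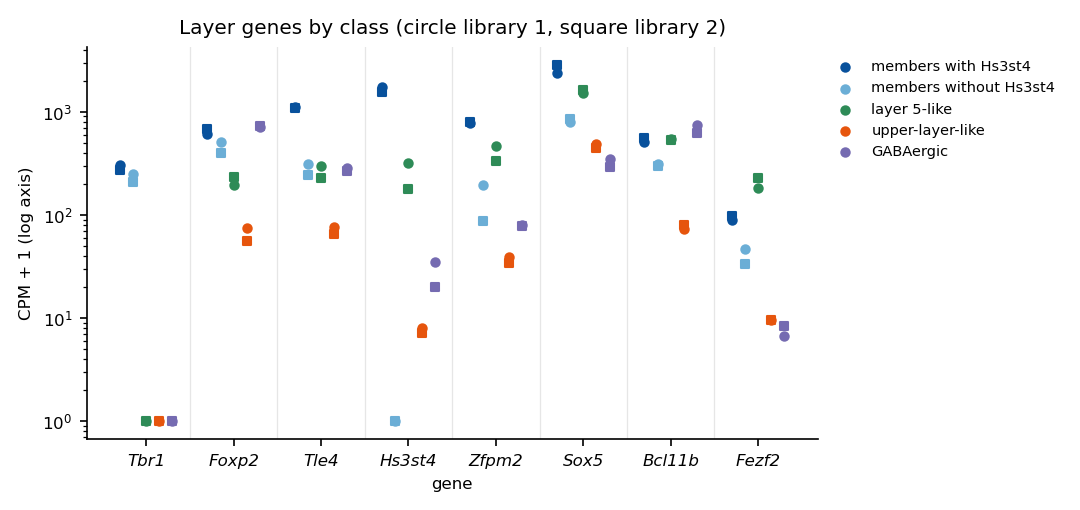
Levels of 8 layer genes in CPM plus 1 (vertical log axis) in 5 classes of cells, circles for library 1 and squares for library 2, each point the sum over the cells of a class. *Tbr1* and *Hs3st4* points at the bottom are classes in which the selection set the gene to 0; *Zfpm2* lies at 780 and 800 CPM in *Hs3st4*-positive members and at 193 and 85.7 in *Hs3st4*-negative members.

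The members were next compared by *Hs3st4*, as 107 and 121 *Hs3st4*-positive and 73 and 89 *Hs3st4*-negative members. The split asks whether the cells that meet the rule without *Hs3st4* carry the same genes as those that meet it with *Hs3st4*. They differed widely. *Hs3st4*-positive members carried genes of layer 6 corticothalamic neurons, of glutamate receptors and of neuronal maturation, and *Hs3st4*-negative members carried genes of newborn migrating neurons and of the upper layers. Counts were summed per library and set, and they were tested over 8995 genes with the quasi-likelihood test of edgeR, which took the library as a block, and with Benjamini-Hochberg adjustment, with the genes used to define classes left out. At an adjusted p under 0.05, 1000 genes were higher in *Hs3st4*-positive members (11.1% of those tested) and 721 were lower (8.02%), 1721 in all (19.1%). The median log2 difference over all genes was -0.005. The 4 sums leave little spread of their own, so that the p-values lean on the spread shared across genes, and DESeq2 called 355, all of them among the 1721 and in the same direction. In a sum, fewer cells with a gene and fewer molecules per cell cannot be told apart, and the cells with a UMI are given beside the main genes.

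*Dpp10*, an auxiliary subunit of potassium channels (chromosome 1, 123332138 to 124845815), differed most among the genes that were higher at 50 CPM or more. It stood at 1363 and 1094 CPM in *Hs3st4*-positive and 18.2 and 16.8 CPM in *Hs3st4*-negative members, a log2 difference of 6.17 ± 0.14 (SE; adjusted p = 7.84e-13). It was found in 60 of 107 and 71 of 121 *Hs3st4*-positive members and in 4 of 73 and 7 of 89 *Hs3st4*-negative members, and the 3 highest cells held 20.1 and 19.6% of its UMIs. *Grik3*, a kainate-type glutamate receptor subunit, stood at 240 and 254 against 4.95 and 6.12 CPM (5.49 ± 0.27). Neither gene was limited to the members. Unthinned, *Grik3* was found in a mean of 45.4% of GABAergic cells and 42.6% of members, and *Dpp10* in 26.0 and 36.3%. *Prickle1*, of the planar cell polarity pathway, stood at 256 and 290 against 11.6 and 4.59 CPM (5.13 ± 0.28). *Nxph3*, a secreted neurexin ligand, stood at 64.9 and 67.8 CPM against 4.95 and 0 CPM, or 3 and 0 UMIs. *Pdzd2*, a protein with PDZ domains, stood at 195 and 164 against 13.2 and 1.53 CPM (4.67 ± 0.34). In each of these 5 genes both sums of *Hs3st4*-positive members lay above both of the other set. *Grik3*, *Prickle1*, *Nxph3* and *Pdzd2* reached the count filter through *Hs3st4*-positive sums alone, which fixed their direction.

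At the other end, *Unc5d*, a netrin receptor family member expressed by migrating multipolar neurons (chromosome 8, 28646717 to 29219671), stood at 268 and 184 CPM in *Hs3st4*-positive and 3149 and 2502 CPM in *Hs3st4*-negative members (-3.60 ± 0.08; adjusted p = 5.29e-13). It was found in 59 of 73 and 75 of 89 *Hs3st4*-negative members, and in 20 of 107 and 27 of 121 *Hs3st4*-positive ones. *Tcf7l2*, a transcription factor of Wnt signalling that is also high in the thalamus, stood at 1.20 and 3.39 against 82.6 and 39.8 CPM and was found in 23 and 14 *Hs3st4*-negative members. *2600014E21Rik* stood at 19.2 and 7.91 against 144 and 127 CPM. For a pair of genes named by the same rule, few cells carried the sums. The 3 highest cells held 87.5 and 60.4% of the *Kif11* UMIs of *Hs3st4*-negative members and 87.4 and 49.3% of those of *Gm32647*, so these are values of a few cells. *Tcf7l2* and *Kif11* reached the count filter through *Hs3st4*-negative sums alone, which fixed their direction.

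**Figure D3:**
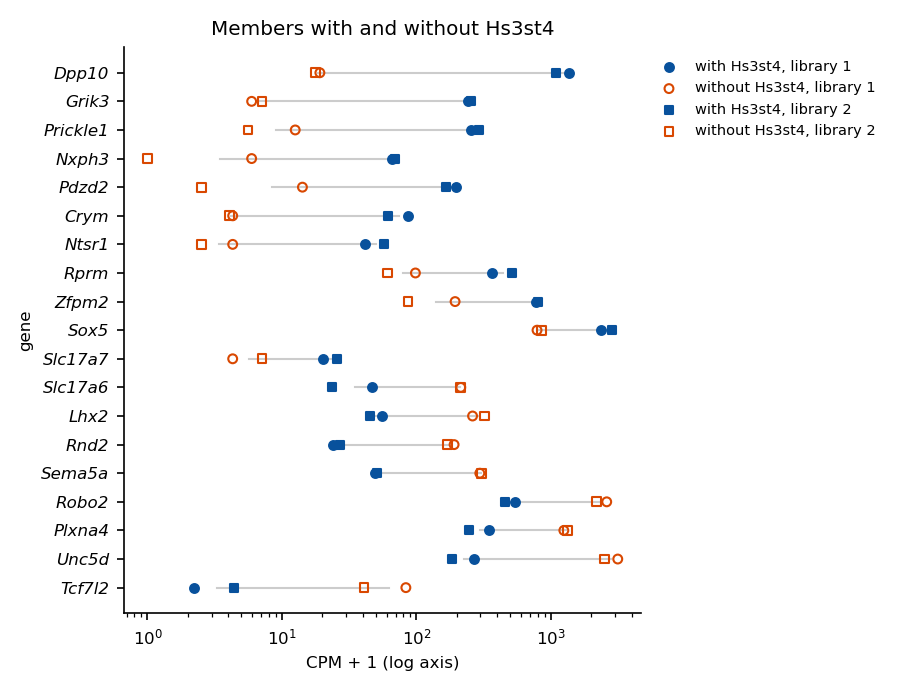
Levels of 19 genes in CPM plus 1 (horizontal log axis) in *Hs3st4*-positive (filled) and *Hs3st4*-negative members (open), circles for library 1 and squares for library 2, with a grey line between the means of the sets. From *Dpp10* to *Slc17a7* both filled points lie to the right of both open points, and from *Slc17a6* to *Tcf7l2* both lie to the left.

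Of the 18 layer 6 corticothalamic genes of the list, none of which the rule used, 17 could be tested. Of these 14 were higher in *Hs3st4*-positive members, 1 was lower and 2 did not pass, with a median log2 difference of 2.0 beside -0.005 over all genes. *Ntsr1*, *Syt6*, *Grik3*, *Crym* and *Nxph3* of the 14 reached the count filter through *Hs3st4*-positive sums alone, which fixed their direction. Of the other 12 genes 9 were higher and 1 lower (median 1.68). Over all genes, 294 of the 1000 higher and 75 of the 721 lower ones passed the filter through a single set in this way. *Ntsr1*, the neurotensin receptor whose promoter drives Cre in adult layer 6 corticothalamic neurons, stood at 40.8 and 56.5 against 3.30 and 1.53 CPM (4.32 ± 0.50). It was still rare, in 25 of 107 and 40 of 121 *Hs3st4*-positive members and in 2 of 73 and 1 of 89 of the others. *Crym*, which binds thyroid hormone, stood at 85.3 and 61.0 against 3.30 and 3.06 CPM (4.50 ± 0.42). *Rprm*, a cell cycle inhibitor, stood at 366 and 510 against 97.4 and 59.7 CPM (2.53 ± 0.21).

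*Zfpm2* stood at 780 and 800 CPM against 193 and 85.7 (2.60 ± 0.19; adjusted p = 1.45e-07). *Sox5* (chromosome 6, 143828425 to 144782287) stood at 2369 and 2849 against 789 and 852 CPM (1.72 ± 0.06). *Syt6*, a synaptotagmin, stood at 69.7 and 43.0 against 13.2 and 9.18 CPM, and *Lmo3*, a LIM-domain factor, at 204 and 270 against 76.0 and 79.5 CPM. *Nfia* differed least of those called, at 1177 and 1257 against 1067 and 1045 CPM (0.26 ± 0.07). The exceptions were *Ptprk*, a receptor phosphatase, at 256 and 268 against 535 and 630 CPM (-1.10 ± 0.11), and *Nfib* and *Foxp1*, which did not pass with 2555 and 2714 against 2652 and 2758 CPM and 257 and 321 against 254 and 277 CPM.

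The list of migrating newborn neuron genes ran the other way. Of 14 tested, 9 were lower in *Hs3st4*-positive members, 1 was higher and 4 did not pass, with a median of -1.05. *Rnd2*, a small GTPase of radial migration, stood at 22.8 and 26.0 against 190 and 170 CPM (-2.81 ± 0.21). *Sstr2*, a somatostatin receptor, stood at 18 and 11.3 against 95.8 and 82.6 CPM, and *Neurod1*, a factor of differentiating neurons, at 48.0 and 13.6 against 144 and 125 CPM. *Sox11* stood at 1744 and 1876 against 3261 and 3219 CPM (-0.79 ± 0.05), while *Sox4*, its relative, did not pass at 1351 and 1485 against 1359 and 1439 CPM. *Tiam2*, an activator of Rac, was the member that was higher, at 633 and 781 against 284 and 307 CPM.

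Of 10 upper-layer and callosal genes tested, 6 were lower in *Hs3st4*-positive members, 1 was higher and 3 did not pass (median -1.66). *Lhx2*, a LIM-homeodomain factor, stood at 54.1 and 44.1 against 261 and 318 CPM (-2.50 ± 0.18), and *Pou3f1* at 54.1 and 46.4 against 192 and 179 CPM. Among 36 cortical transcription factors, 11 were higher and 11 lower. *Tshz3*, a zinc finger factor, stood at 186 and 257 against 33.0 and 55.1 CPM (2.38 ± 0.19), and *Arpp21*, on the list though it encodes a phosphoprotein, at 1300 and 1346 against 269 and 343 CPM (2.17 ± 0.10). Of 11 layer 5 genes 4 were higher and 3 lower, and of 4 subplate genes 1 was higher. *Kcnab1* among the former and *Pappa2* among the latter passed the count filter through *Hs3st4*-positive sums alone.

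The glutamate and GABA receptors and transporters were mostly higher in *Hs3st4*-positive members, with 20 of 30 higher, 2 lower and 8 that did not pass (median 1.35), where 6 of the 20 passed the count filter through *Hs3st4*-positive sums alone and the other 24 genes had a median of 0.73. *Grm3*, a metabotropic receptor, stood at 285 and 267 against 42.9 and 19.9 CPM (3.20 ± 0.22), *Grm5* at 455 and 430 against 72.7 and 61.2 CPM (2.78 ± 0.15), and *Grin2b*, an NMDA receptor subunit, at 1309 and 1202 against 390 and 367 CPM (1.78 ± 0.08). The vesicular glutamate transporters split. *Slc17a6* (VGLUT2) stood at 45.6 and 22.6 against 213 and 211 CPM (-2.60 ± 0.22), and *Slc17a7* (VGLUT1) at 19.2 and 24.9 against 3.30 and 6.12 CPM (2.23 ± 0.53). *Slc17a6* was found in 48 of 73 and 60 of 89 *Hs3st4*-negative members and in 17 of 107 and 14 of 121 of the others. *Slc17a7* was rare in both sets, in 13 and 17 against 2 and 4 cells. It reached the count filter through *Hs3st4*-positive sums alone, which fixed its direction. The second lower gene was the AMPA receptor subunit *Gria2*, at 723 and 695 against 1217 and 1184 CPM, while the kainate receptor subunit *Grik2* did not pass, at 472 and 455 against 589 and 580 CPM.

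Ion channels were higher in 15 of 30 genes and lower in 4 (median 0.77), with 3 of the 15 let through by *Hs3st4*-positive sums alone and a median of 0.26 over the other 27. *Cacna1e*, an R-type calcium channel subunit, stood at 460 and 488 against 72.7 and 44.4 CPM (3.08 ± 0.18). *Scn1a*, a sodium channel subunit, was among the lower ones at 13.2 and 5.65 against 49.5 and 41.3 CPM. Neuronal maturation genes were higher in 15 of 23 and lower in 2 (median 0.93), and 3 of the 15 were likewise let through by 1 set (median 0.87 over the other 20). *Camk2b*, a calcium-dependent kinase subunit of synapses, stood at 147 and 196 against 34.7 and 27.5 CPM (2.51 ± 0.22), *Ina*, an intermediate filament of neurons, at 309 and 351 against 85.9 and 68.8 CPM (2.15 ± 0.16), and *Snap25*, of the vesicle fusion machinery, at 389 and 371 against 231 and 187 CPM (0.92 ± 0.13). *Map2*, found in dendrites, did not pass at 1066 and 1072 against 1019 and 933 CPM.

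Guidance genes moved in both directions. Of 22 semaphorins, plexins and neuropilins, 4 were higher in *Hs3st4*-positive members and 8 lower (median -0.15). Of the 4, *Sema3e* and *Sema6b* passed the count filter through *Hs3st4*-positive sums alone. *Plxna4*, a semaphorin receptor, stood at 345 and 247 against 1250 and 1328 CPM (-2.08 ± 0.12), *Sema5a* at 48.0 and 49.7 against 296 and 304 CPM, and *Sema3c* at 66.1 and 66.7 against 353 and 248 CPM. Of 20 slits, netrins and their receptors, 5 were higher and 6 lower (median 0.28). *Robo2*, a slit receptor (chromosome 16, 73891976 to 75447443), stood at 538 and 452 against 2606 and 2173 CPM (-2.22 ± 0.07), the netrin receptor *Dcc* at 1645 and 1366 against 3291 and 3120 CPM (-1.04 ± 0.06), and the ligand *Slit1* at 61.3 and 84.8 against 19.8 and 12.2 CPM (2.24 ± 0.32). Of 14 ephrins and Eph receptors, 3 were higher and 4 lower. *Ephb1* stood at 652 and 644 against 165 and 91.8 CPM (2.42 ± 0.16), whereas *Epha3* stood at 436 and 233 against 1111 and 1094 CPM and *Epha5* at 1145 and 874 against 2010 and 1944 CPM.

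Cell adhesion was the largest list, with 30 of 57 genes higher, 10 lower and 17 that did not pass (median 0.51). Among the 30, *Cdh9* passed the count filter through *Hs3st4*-positive sums alone. *Cdh13*, a cadherin bound to the membrane by a lipid anchor, stood at 849 and 990 against 140 and 121 CPM (2.87 ± 0.12), and *Mdga2*, which binds neuroligins, at 1317 and 1305 against 203 and 228 CPM (2.66 ± 0.09). *Cntnap5b*, of the contactin-associated proteins, stood at 221 and 158 against 61.1 and 16.8 CPM.

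**Figure D4:**
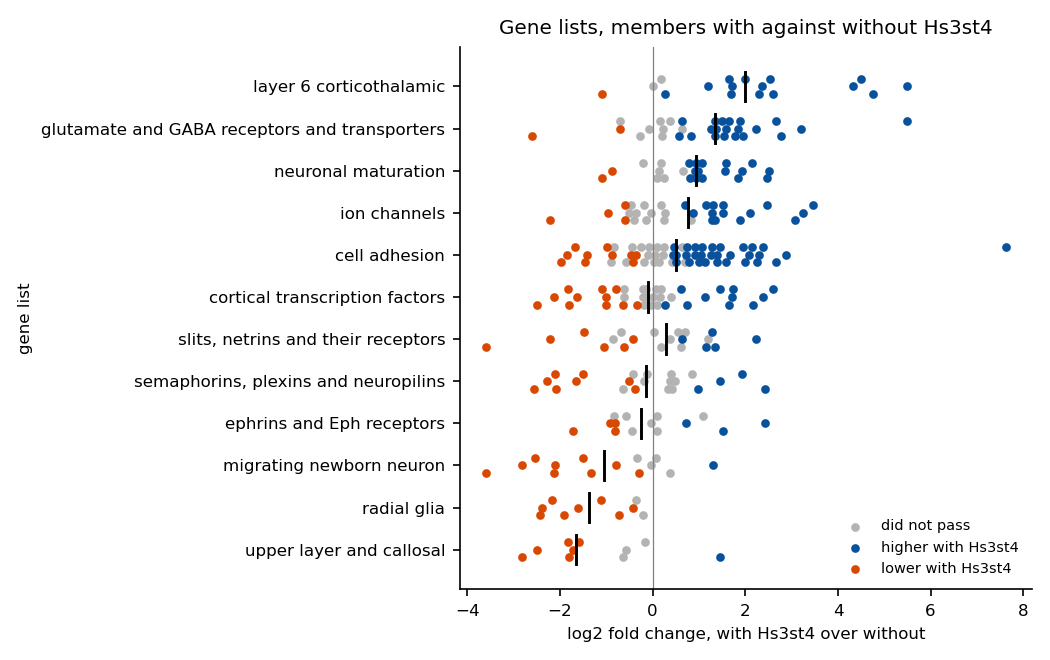
Log2 difference between *Hs3st4*-positive and *Hs3st4*-negative members (horizontal axis) for each tested gene of 12 lists, coloured by whether it passed, with a black bar at the median of the list. The layer 6 list has its median at 2.0 and the upper-layer list at -1.66.

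Depth, RNA quality and other cells moved with the split in part, and their part in it was not tested. *Hs3st4*-positive members held a median of 6660 and 6157 UMIs and 6.31 and 5.27% mitochondrial UMIs, *Hs3st4*-negative members 7328 and 6673 UMIs and 4.23 and 3.87%. Scrublet marked 13 of 107 and 13 of 121 *Hs3st4*-positive and 10 of 73 and 14 of 89 *Hs3st4*-negative members as likely doublets, 12.8 and 12.9% of all members against 7.24 and 10.8% of all cells. The radial glia list was lower in *Hs3st4*-positive members for 8 of 10 genes, with a summed level of 863 and 1495 against 1783 and 1907 CPM and 2047 and 1930 CPM in upper-layer-like cells. Of the 8, 1 passed the count filter through *Hs3st4*-negative sums alone. Intermediate progenitor genes were lower for 3 of 5 (50.5 and 50.9 against 157 and 203 CPM; *Neurog1* at 0). Of these, 2 passed the count filter through *Hs3st4*-negative sums alone, and of the 3 genes with counts in both sets 1 was lower. Thalamic genes were lower for 3 of 4 (191 and 142 against 469 and 581 CPM), with *Gbx2*, a defining gene of thalamic neurons, at 0 in all members. Among the 3 is *Lhx2*, which is on the upper-layer list too and supplied 54.1 and 44.1 of the former sums and 261 and 318 CPM of the latter. Another, *Tcf7l2*, reached the count filter through *Hs3st4*-negative sums alone. Erythroid genes passed as higher for 4 of 5, all of them globins, at a summed 2572 and 1325 against 484 and 896 CPM, and 2 of the list, *Hbb-y* and *Hba-x*, were at 0. A single *Hs3st4*-positive cell in each library held 1662 of 2131 and 369 of 1159 globin UMIs. Without it, the globins summed to 568 and 895 CPM, against 474 and 886 CPM in *Hs3st4*-negative members, so that the difference rested largely on these cells. Microglial and oligodendrocyte-lineage genes summed to under 20 and 10 CPM in both sets, and GABAergic genes other than those of the rule to 344 and 344 against 77.6 and 170 CPM, beside 3647 and 3285 in GABAergic cells. Striatal genes summed to 112 and 71.2 against 233 and 158 CPM, with 1 of 3 higher and 1 lower, and *Penk*, a striatal neuropeptide gene, at 0. The higher one, *Ppp1r1b*, passed the count filter through *Hs3st4*-positive sums alone. Vascular and meningeal genes summed to 8.41 and 79.1 against 13.2 and 24.5 CPM, and none of the 10 could be tested.

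Cajal-Retzius genes, which mark early-born cells of the marginal zone, were higher for 3 of 5 in *Hs3st4*-positive members, and these sums came from few cells. Of the 3, *Ndnf* and *Cacna2d2* passed the count filter through *Hs3st4*-positive sums alone. Among the 3 tested genes with counts in both sets 1 was higher, *Reln*. *Reln*, the secreted glycoprotein reelin, stood at 234 and 176 against 47.9 and 18.4 CPM (2.71 ± 0.23). Of the 392 *Reln* UMIs of all members, 354 (90.3%) lay in 7 cells that held at least 3 of the 8 Cajal-Retzius genes, 5 of them *Hs3st4*-positive. With *Foxp2* and *Tle4* both required in each set, the *Reln* difference was -0.86 (adjusted p = 0.170), so its direction depended on which members were taken. A further 18 members held at least 3 UMIs of *Mki67*, *Top2a* and *Kif11*, genes of dividing cells, 14 of them *Hs3st4*-negative and 12 of the 18 marked as doublets. Without these 25 cells, a set chosen after seeing the data, 1340 genes were called in the split, and 1298 of the 1721 held their call and direction.

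The label was set beside these values as a description. *Hs3st4* is itself a marker gene of the rule, so the genes that were higher with it are no independent check of the name. *Hs3st4*-positive members held *Zfpm2* at 780 and 800 CPM and *Sox5* at 2369 and 2849 CPM, above upper-layer-like cells. *Hs3st4*-negative members, 162 of the 390, gave mixed values. Their *Zfpm2* (193 and 85.7 CPM) and *Sox5* (789 and 852 CPM) lay below *Hs3st4*-positive members but above upper-layer-like cells (38.5 and 33.5, and 491 and 446 CPM), and they carried *Unc5d*, *Rnd2* and *Neurod1*. Of the other layer 6 genes, *Rprm*, *Lmo3*, *Syt6*, *Cdh18*, *Nfia*, *Nfib* and *Foxp1* also lay above upper-layer-like cells in both libraries. *Ntsr1* (3.30 and 1.53 against 9.42 and 10.8 CPM), *Garnl3* (21.5 and 15.3 against 29.9 and 30.7 CPM), *Ptprk* and *Wnt7b* lay below them. *Crym*, *Grik3*, *Nxph3* and *Thsd7b* lay on different sides in the 2 libraries. The name is thus less well borne out for *Hs3st4*-negative members, and they are called here by their genes only. For comparison, the cells just outside the rule with 1 marker gene had *Unc5d* at 2299 and 1567 CPM, *Robo2* at 2782 and 2035 and *Zfpm2* at 124 and 132. The *Hs3st4*-negative members stood at 3149 and 2502, 2606 and 2173, and 193 and 85.7 CPM for these genes. The values are set side by side without a test.

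The *Hs3st4*-positive members were not uniform either. Those with all 3 marker genes and those without *Foxp2* (35 and 25 cells) are given as a description. *Sox5* stood at 3231 and 3350 CPM with all 3 genes and at 978 and 1290 CPM without *Foxp2*, and *Dpp10* at 2061 and 1233 against 228 and 623 CPM. *Grik3* stood at 340 and 298 against 83.7 and 113 CPM, and *Zfpm2* at 966 and 803 against 492 and 829 CPM, where the libraries overlapped between the sets. *Tbr1* was alike at 313 and 260 against 286 and 289 CPM. All cells with the 3 marker genes held *Sox5*, 95.6% ± 0.0453 (SD, n = 2) of them after thinning, against 55.7% ± 6.06 of those without *Foxp2*. Cajal-Retzius genes summed to 35.4 and 57.5 CPM with all 3 genes and to 1107 and 1216 CPM without *Foxp2*, where 4 of the 7 cells described above lay.

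Against upper-layer-like cells, most of the layer 6 genes were higher in the sum of all members. Of the adhesion, receptor and channel genes more were higher than lower. The sum pools both sets of members. In *Hs3st4*-negative members some layer 6 genes did not lie above upper-layer-like cells, as given above. The members, the layer 5-like, the upper-layer-like and a subplate-like class described below were fitted together as 8 sums over 12859 genes with the same test. In the members 629 genes were higher (4.89%) and 205 lower (1.59%), 834 in all (6.49%). With the subplate-like class left out of the fit, a choice made after seeing the data, 1492 were called, among them 832 of the 834 in the same direction. Of the 18 layer 6 genes, 13 were higher, 1 was lower and 4 did not pass, with a median of 2.19 beside -0.004 over all genes. *Zfpm2* was higher by 3.82 ± 0.20 and *Sox5* by 1.98 ± 0.20 on the log2 scale. *Rprm* stood at 253 and 319 against 31.7 and 37.2 CPM (3.03 ± 0.15), *Crym* at 50.8 and 36.4 against 3.01 and 4.84 CPM (3.36 ± 0.27) and *Ntsr1* at 25.0 and 33.1 against 9.42 and 10.8 CPM (1.5 ± 0.33). *Cdh18*, a cadherin, stood at 57.7 and 63.1 against 3.01 and 4.84 CPM. *Ptprk* was lower, at 373 and 422 against 720 and 722 CPM (-0.87 ± 0.11). *Thsd7b*, on the same list, passed at 1.83 ± 0.43, but the 3 highest cells held 72.2 and 63.6% of its UMIs, and the value was -0.29 when all 3 marker genes were required.

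Several of the genes with the largest differences from upper-layer-like cells had also differed by *Hs3st4*. *Dpp10* stood at 797 and 636 against 9.62 and 13.5 CPM (5.88 ± 0.18; adjusted p = 6.56e-10). *Sgcz*, a sarcoglycan, stood at 179 and 190 against 1.80 and 8.16 CPM (5.01 ± 0.39), *Cntnap5b* at 154 and 98.2 against 3.81 and 4.46 CPM (4.82 ± 0.30), and *Pcsk5*, a proprotein convertase, at 55.6 and 80.0 against 2.20 and 3.19 CPM (4.59 ± 0.26). *Grik3*, *Prickle1* and *Pdzd2* were higher by 4.48, 4.41 and 4.38. *Kctd12*, which associates with GABA-B receptors, was higher by 4.44 ± 0.23 and *Htr1f*, a serotonin receptor, by 4.30 ± 0.25. *Nts*, the precursor of neurotensin, met the naming rule at 4.17 and 135 CPM, yet a single cell of library 2 held 156 of its 207 UMIs there, and 3 cells held 96.6%.

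On the lower side, *Gm10862* stood at 2.09 and 8.45 CPM in the members and 60.7 and 44.0 CPM in upper-layer-like cells (-3.27 ± 0.52), and *Adamtsl3* at 17.4 and 13.6 against 84.4 and 76.4 CPM. *9130024F11Rik* stood at 108 and 110 against 551 and 570 CPM (-2.38 ± 0.12), and *Frmd4a*, a scaffold protein of cell polarity, at 936 and 1000 against 3400 and 3187 CPM (-1.79 ± 0.19). *Kif26b*, *Hs6st3*, *Gm2164*, *Gm16599*, *Tafa2* and *Cdh12* followed, between -2.17 and -1.72. With all 3 marker genes required, these 10 genes were lower by more, from -5.79 (*Gm10862*) to -2.77 (*Kif26b*). Of 13 upper-layer genes 9 were lower, 2 higher and 2 did not pass. *Rorb*, a nuclear receptor, was higher, at 198 and 221 against 86.6 and 94.6 CPM (1.19 ± 0.19). The lower ones included *Inhba*, at 5.56 and 6.50 against 26.9 and 32.4 CPM (-2.30 ± 0.30), *Dok5* (-1.65 ± 0.14) and *Lhx2* (-0.81 ± 0.11).

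Of 57 adhesion genes 31 were higher in the members and 7 lower, and of 37 receptors and transporters 15 were higher and 3 lower. Of 34 ion channels 11 were higher, 4 lower and 19 did not pass. *Cntn4*, a contactin, stood at 34.1 and 43.5 against 2.0 and 4.08 CPM (3.63 ± 0.29), *Grm3* at 183 and 162 against 10.4 and 11.1 CPM (3.95 ± 0.18), and *Cacna1e* at 297 and 300 against 37.5 and 38.1 CPM (2.96 ± 0.11). Of 16 ephrins and Eph receptors 2 were higher, 3 lower and 11 did not pass. *Ephb1* was higher by 2.32 ± 0.14 and the ephrin ligand *Efna5* by 2.04 ± 0.15, whereas *Epha3* stood at 720 and 599 against 1110 and 1104 CPM (-0.76 ± 0.13) and *Ephb2* at 50.8 and 59.8 against 82.4 and 85.7 CPM (-0.61 ± 0.15). Of 27 semaphorins, plexins and neuropilins 4 were higher and 2 lower. *Nrp2*, a semaphorin co-receptor, was higher by 2.62 ± 0.18 over all members but only at 0.54 (adjusted p = 0.595) with all 3 marker genes required. *Unc5d* did not pass, at 1481 and 1169 against 1701 and 1591 CPM, and was at -3.29 (adjusted p = 1.64e-07) with all 3 required.

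Genes of other cells moved with this comparison too, and their part in it was not tested. Of 6 Cajal-Retzius genes tested 4 were higher in the members (median 2.84), and the 8 listed genes summed to 289 and 231 CPM against 30.5 and 34.4 in upper-layer-like cells. *Reln* stood at 156 and 109 against 14.0 and 11.3 CPM (3.34 ± 0.26). It was at 0.39 (adjusted p = 0.793) with all 3 marker genes required, and at 0.08 (adjusted p = 0.965) without the 25 cells rich in Cajal-Retzius or dividing cell genes. Of 6 striatal genes 2 were higher, *Ebf1* and *Ppp1r1b*, and the 13 listed genes summed to 163 and 108 against 32.1 and 36.3 CPM, beside 1508 and 1252 in GABAergic cells. Of 8 hippocampal genes 4 were higher and 1 lower (median 1.13), and they summed to 1094 and 783 against 467 and 465 CPM. Of 5 erythroid genes 2 were lower and 0 higher.

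Against layer 5-like cells the differences were fewer, and many were lost when all 3 marker genes were required. That setting left 160 of the 390 members, since it removes the 162 *Hs3st4*-negative members and also the 60 *Hs3st4*-positive members without *Foxp2* and the 8 without *Tle4*. Over all members 128 genes were higher (0.995%) and 78 lower (0.607%), 206 in all (1.60%). Without the subplate-like class in the fit 780 were called, 387 of them higher, and these included all 206. The layer 5-like cells held marker genes of the members' rule as well, with *Tle4* in 64.2 and 48.0%, *Foxp2* in 32.1 and 37.0% and *Hs3st4* in 35.8 and 26.8% of cells. Against layer 5-like cells with none of these, a choice made after seeing the data, 150 genes were called, and 93 of the 206 (45.1%) held their call and direction. Of the 18 layer 6 genes, 3 were higher, 1 was lower and 14 did not pass (median 0.40 beside 0.01 over all genes). *Syt6* stood at 45.9 and 28.6 against 10.4 and 8.89 CPM (1.85 ± 0.39), *Wnt7b*, a Wnt ligand of deep-layer neurons, at 82.1 and 90.4 against 35.0 and 22.7 CPM (1.55 ± 0.30), and *Nfia* at 1131 and 1167 against 583 and 568 CPM (0.93 ± 0.16). *Crym* was lower, at 50.8 and 36.4 against 119 and 105 CPM (-1.43 ± 0.22). *Zfpm2* and *Sox5* did not pass, with differences of 0.33 ± 0.19 and 0.18 ± 0.19. With all 3 marker genes required, 8 of the 18 were higher and 0 lower (median 1.07), beside 163 higher and 114 lower of all 12777 genes tested. Among the 8 were *Zfpm2* at 1.15 (adjusted p = 0.0130) and *Sox5* at 1.05 (adjusted p = 0.0152), while *Crym* stood at -0.69 (adjusted p = 0.198). This setting chooses the members more strictly by genes of their own rule and leaves the layer 5-like cells as they were. These values are therefore no independent check of the layer 6 name.

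Of the 128 genes called higher in the members, 126 could be tested with all 3 marker genes required. Only 36 were still called higher, and 37 had the opposite direction, 6 of which were called lower. Of the 78 called lower, 78 were tested, 42 were still called and 0 turned. *Unc5d*, 1481 and 1169 against 120 and 170 CPM, was at 3.09 ± 0.19 over all members and at 0.14 with all 3 required. *Rnd2* went from 2.39 to 0.04, *Epha3* from 1.61 to 0.00039 and *Epha5* from 0.64 to 0.05. Others turned, with *Slc17a6* from 1.91 to -0.94, *Sstr2* from 1.82 to -1.06, *Plxna4* from 1.30 to -0.98 (adjusted p = 0.00952), *Sema3c* from 1.25 to -1.12 (adjusted p = 0.0484) and *Kcnc2*, a potassium channel subunit, from 2.45 to -0.40. *Zfhx4* and *Cdh12* fell from 2.56 and 2.44 to 0.36 and 0.34 and no longer passed. *Reln*, at 3.32 over all members, was at 0.38 and came largely from the 7 cells above.

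Most of the following genes held in both settings. *Dpp10* stood at 797 and 636 CPM in the members against 114 and 121 in layer 5-like cells (2.53 ± 0.17), and at 3.75 with all 3 marker genes required. *Adarb2*, an RNA-editing family member, was higher by 3.16 ± 0.30 and 2.87, though 3 cells held 42.2 and 30.4% of its UMIs in the members. *Slit3*, a slit ligand (chromosome 11, 35121456 to 35708507), marked the layer 5-like cells, at 54.2 and 28.0 CPM in the members and 491 and 499 in layer 5-like cells (-3.69 ± 0.29; -4.45 with all 3 required). *Ncam2*, an adhesion molecule, was at 113 and 151 against 617 and 589 CPM (-2.25 ± 0.22), *Bhlhe22*, a basic helix-loop-helix factor, at 145 and 179 against 415 and 487 CPM (-1.55 ± 0.13) and *Nr2f2*, the nuclear receptor COUP-TFII, at 84.1 and 59.8 against 298 and 204 CPM (-1.86 ± 0.20; -4.39 with all 3 required). *B130024G19Rik*, *Dpyd* and *4930509J09Rik* stayed lower too, at -2.21, -1.93 and -1.91. *Fam184a* and *Gucd1* were lower by this test (-2.64 and -2.24), but their sums in layer 5-like cells differed between libraries, at 98.5 and 43.5 and at 35.0 and 173 CPM. With all 3 marker genes required *Fam184a* still passed (-3.31), and *Gucd1* did not (-1.25; adjusted p = 0.184). Against layer 5-like cells without the marker genes, neither passed, at 0.0080 and 1.61, on the other side of 0.

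Of 25 maturation genes 0 were higher and 4 lower in the members than in layer 5-like cells, against 0.995% and 0.607% of all genes. *Syt4*, a synaptotagmin, stood at 88.3 and 71.5 against 329 and 233 CPM (-1.87 ± 0.20), *Nefm*, a neurofilament, at 7.65 and 13.6 against 42.8 and 46.4 CPM (-2.12 ± 0.45) and *Camk4*, a calcium-dependent kinase, at 55.6 and 53.3 against 144 and 101 CPM (-1.21 ± 0.21). *Stmn2*, a regulator of microtubules, stood at 1343 and 1542 against 1910 and 1979 CPM (-0.50 ± 0.11). Of 34 ion channels 1 was higher and 2 lower, with *Kcnq5* at 332 and 387 against 963 and 911 CPM. With all 3 marker genes required, *Syt4*, *Camk4* and *Kcnq5* still passed, and *Nefm* (adjusted p = 0.160) and *Stmn2* (-0.09; adjusted p = 0.854) did not. In that setting 1 maturation gene was higher and 3 were lower, and the median of the list went from -0.36 to 0.04. The higher one was *Rbfox1*, an RNA-binding splicing factor, which went from 0.42 (adjusted p = 0.166) to 1.0 (adjusted p = 0.00134). Of 11 layer 5 genes tested 1 was higher in the members, 2 were lower and 8 did not pass (median -0.46). *Pcp4*, a calmodulin-binding peptide, was the higher one, at 293 and 194 against 105 and 53.4 CPM (1.58 ± 0.19), and was at 0.99 (adjusted p = 0.211) with all 3 required.

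**Figure D5:**
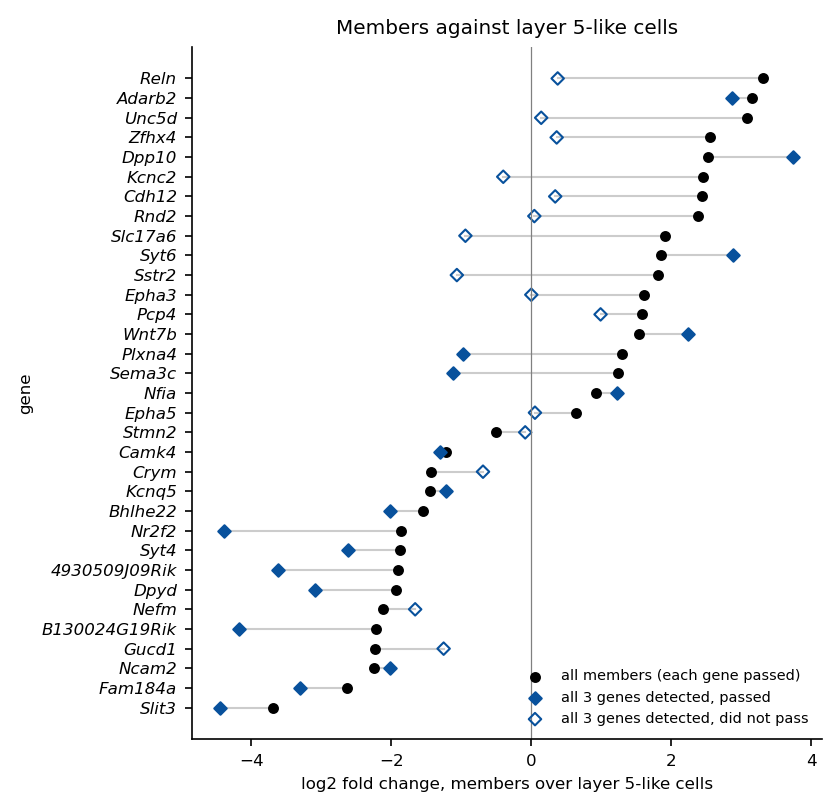
Log2 difference between the members and layer 5-like cells (horizontal axis) for 33 genes that passed over all members (black), with the same difference when *Foxp2*, *Tle4* and *Hs3st4* were all required (blue diamonds, filled where the gene passed). *Unc5d* and *Rnd2* move to 0.14 and 0.04, *Slit3* and *Nr2f2* move further from 0, and *Plxna4* and *Sema3c* change side.

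The subplate-like class, cells with *Nr4a2* and at least 1 of *Ccn2*, *Cplx3* and *Nxph4* (17 and 15 cells), went against its label. Its vascular and meningeal genes summed to 1887 and 4461 CPM, against 10.4 and 55.9 in the members, with *Rgs5*, a pericyte gene, at 352 and 579 CPM and *Col3a1*, a collagen, at 401 and 772 CPM. The 813 genes higher (6.32%) and 887 lower (6.90%) in the members than in it are therefore not described further.

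Cells that met the whole rule except that *Nr4a2* was detected (35 and 25 cells) were compared with the members instead, a choice made after seeing the data. *Nr4a2* encodes a nuclear receptor of subplate and deep layer 6 neurons. Some layer 6 genes were higher in the *Nr4a2*-positive cells than in the members as a whole. Of 12757 genes tested with the same method, 115 were higher in the members (0.901%) and 163 lower (1.28%), 278 in all (2.18%). Of the 18 layer 6 genes, *Zfpm2* (-0.76 ± 0.12), *Sox5* (-0.58 ± 0.11), *Grik3* (-1.0 ± 0.19), *Crym* (-1.04 ± 0.28) and *Lmo3* (-1.51 ± 0.13) were lower in the members, *Ptprk* was higher (0.58 ± 0.15), and 12 did not pass. *Lmo3* stood at 150 and 189 CPM in the members and 418 and 564 in *Nr4a2*-positive cells, and at 204 and 270 CPM in *Hs3st4*-positive members. For the other 4 the levels of *Hs3st4*-positive members were closer. *Sox5* stood at 2369 and 2849 CPM in them and 2234 and 3450 in *Nr4a2*-positive cells, *Zfpm2* at 780 and 800 against 821 and 959, *Grik3* at 240 and 254 against 219 and 400, and *Crym* at 85.3 and 61.1 against 95.3 and 84.6 CPM. These differences were not tested. *Tshz2*, a zinc finger factor, stood at 46.6 and 47.4 against 244 and 315 CPM (-2.54 ± 0.19), and *Gabrb1*, a GABA-A receptor subunit, at 82.1 and 83.8 against 446 and 545 CPM (-2.53 ± 0.19). *Pcp4* stood at 293 and 194 CPM in the members and 33.6 and 42.3 in *Nr4a2*-positive cells (2.76 ± 0.28). Of 7 subplate genes tested 0 were called in either direction. *Hs3st4* was found in 90.3% ± 2.42 (SD, n = 2) of the *Nr4a2*-positive cells and in 58.5% ± 1.29 of the members.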

How the data were processed

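RNA was measured in 2 WT libraries of E16.5 mouse cerebral cortex, prepared with the 10x Genomics 3' kit. The authors deposited UMI counts per gene and barcode for 32285 genes, and the files hold 22605 barcodes. Per the file headers the counts came from Cell Ranger 7.1.0, whereas the submitters' processing notes name Cell Ranger 7.0.0 and the build mm10. The gene annotation is not given in the sources used here. Raw counts keep depth, and intronic reads and free RNA cannot be separated in them. Library numbers only name the libraries.

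Members were selected as described above, and the barcodes were otherwise used as deposited. Likely doublets were scored with Scrublet (scanpy 1.11.5) at 0.8% per 1000 barcodes and kept in the main results. Raw counts were summed per library and class, since cells are not replicates. The test was edgeR 4.0.16 under R 4.3.3 (quasi-likelihood F test, normalization by TMM, a block per library, genes with at least 10 counts in 2 sums, Benjamini-Hochberg adjustment over all genes tested, adjusted p under 0.05), and DESeq2 1.42.0 was an alternative. The 17 genes that define the 4 classes were left out of the tests. The 71 cells that met both the layer 5-like and the upper-layer-like gates were left out of both. The upper-layer-like gate also required a further gene, and values of some genes that the rules below would name are not reported here. The layer 5-like and upper-layer-like cells held no *Nr4a2*, *Eomes*, *Gad1*, *Gad2* or *Tbr1*. Each library supplied every class, so the block pairs sums from the same library. Values are given as library 1 and library 2, fold changes as log2 with their SE. The test was checked on simulated counts with 100 changed genes per fold. It recovered 92% of log2 changes of 2 against upper-layer-like cells, 80% against layer 5-like cells and 94% in the *Hs3st4* split, and 43, 39 and 40% of log2 changes of 1. The simulation drew all classes from a single pooled profile with a fixed spread. It changed only genes with higher expected counts than the filter required. These shares therefore do not give the power of the tests on the real sums, where the classes differ widely.

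The members, gene lists and tests were chosen with earlier results of these data known. Genes named were the layer 6 list, the layer genes above, the 10 genes with the greatest fold change in each direction among those called against upper-layer-like cells, 8 against layer 5-like cells and 5 in the *Hs3st4* split (at least 50 CPM in the higher class, same direction in both libraries, no mitochondrial, ribosomal, globin or sex-linked genes), and from each other list up to 4 called genes of at least 20 CPM and 2 uncalled ones. The counts of cells per gene, *Neurod6*, *Gabrb1*, *Tshz2* and the genes of the 25 cells were singled out after their values were seen. The genes named for being lost or reversed with all 3 marker genes required were likewise taken after the fact from the named lists. Coordinates are those of RefSeq for GRCm38, matched by symbol for 19 of 19 genes.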

Additional observations from a re-analysis of the deposited data

Results flagged for a closer look

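Outside the cells considered, 57 barcodes met the gene part of the rule, 45 in library 1 and 12 in library 2, and they were flagged because they form a signal in data that no comparison used. All of them had 10% or more mitochondrial UMIs and 0 failed the limits on UMIs. They would add to 180 and 210 members, and no further values were taken from them.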

How the results depend on the processing

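Against upper-layer-like cells 834 genes became 511 with DESeq2, 1621 when the fit held the compared classes alone, 549 with cells thinned to 1500 UMIs, 428 under 5% mitochondrial UMIs and 1492 without the subplate-like sums. Against layer 5-like cells 206 became 502 with no filter on low counts, 735 with the compared classes alone, 131 with at least 2 *Tbr1* UMIs and 780 without the subplate-like sums. Against subplate-like cells 1700 became 332 with those alone, 366 thinned, 528 under 5% mitochondrial UMIs and 278 with the *Nr4a2*-positive cells in their place. In the *Hs3st4* split 1721 became 355 with DESeq2, 586 thinned (3240 genes tested), 800 under 5% mitochondrial UMIs and 740 with at least 2 *Tbr1* UMIs. The causes were not tested, beyond the fewer cells and genes that thinning and the stricter limits leave. The member share of 2.53% ranged from 2.05 to 3.02% over single libraries, and was 1.02% with all 3 marker genes and 1.34% with at least 2 *Tbr1* UMIs. The thinned *Zfpm2* share of 37.3% ranged from 36.2 to 38.3% over single libraries, and was 61.0% unthinned, 17.7% at 2 or more UMIs, 38.9% without likely doublets, 29.2% under 5% mitochondrial UMIs and 59.3% with all 3 marker genes.

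The replicate block pairs sums of the same library. With no replicate block, 833 genes were called against upper-layer-like, 181 against layer 5-like and 1661 against subplate-like cells and 1513 in the *Hs3st4* split. Leaving out a library leaves no residual degrees of freedom, so no count of genes could be tested without it.

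With all 3 marker genes required, *Thsd7b* (-0.29) and *Zbtb20* (-1.0) turned against upper-layer-like cells, and *Kcnc2* (-0.40), *Slc17a6* (-0.94), *Plxna4* (-0.98), *Sema3c* (-1.12) and *Sstr2* (-1.06) against layer 5-like cells. With layer 5-like cells that held none of the marker genes, a choice made after seeing the data, *Fam184a* stood at 0.0080 and *Gucd1* at 1.61, neither of which passed. *Reln* in the *Hs3st4* split stood at -0.86 with *Foxp2* and *Tle4* required in both sets. Of the other values of named genes under an alternative, 31 in the *Hs3st4* split, 49 against layer 5-like and 25 against upper-layer-like cells lost their call in the same direction, and 704, 439 and 677 held. The latter include values with a library left out, 70, 36 and 56 for each library. There only the direction was compared, without a test.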

Other observations

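Genes listed for hippocampal neurons were also read in the members. *Zbtb20*, a zinc finger repressor of hippocampal identity that is also expressed in progenitors and glia, stood at 857 and 608 CPM in the members and 399 and 384 CPM in upper-layer-like cells (0.86 ± 0.16; adjusted p = 0.00338 by edgeR). The level came mainly from *Hs3st4*-negative members, at 1194 and 933 CPM, against 613 and 368 CPM in *Hs3st4*-positive members (-1.09 ± 0.10), and it was found in 67 of 73 and 81 of 89 of the former and in 37 of 107 and 42 of 121 of the latter. With all 3 marker genes required it stood at 147 and 230 CPM, and at -1.0 against upper-layer-like cells (adjusted p = 0.0188). *Nr3c2*, the mineralocorticoid receptor, was higher in *Hs3st4*-positive members by 3.78 ± 0.39, but 3 cells held 83.5 and 59.1% of its UMIs there. It reached the count filter through *Hs3st4*-positive sums alone, which fixed its direction. The 8 genes of the list summed to 230 and 292 CPM with all 3 marker genes, 1992 and 1201 CPM in members without *Foxp2* and 1362 and 1153 CPM in *Hs3st4*-negative members. *Nrp2*, *Etv1*, *Zbtb20* and *Lhx9* are on this list and on others used here.

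Genes listed for layer 5 differed from upper-layer-like cells in both directions, with 5 of 11 higher in the members and 2 lower. *Cntn6*, a contactin, stood at 18.8 and 49.4 against 2.0 and 3.31 CPM (3.60 ± 0.45), and *Ldb2*, a LIM-domain binding cofactor, at 254 and 322 against 136 and 149 CPM (0.99 ± 0.13). *Bcl6*, a transcriptional repressor, stood at 21.6 and 19.5 against 65.1 and 62.1 CPM (-1.64 ± 0.19). In the *Hs3st4* split *Ldb2* stood at 320 and 448 against 164 and 151 CPM (1.33 ± 0.15) and *Kcnab1*, an auxiliary potassium channel subunit, at 52.9 and 56.5 against 6.61 and 6.12 CPM (3.13 ± 0.38), both higher in *Hs3st4*-positive members, while *Bcl6* was lower there at 12 and 9.04 against 34.7 and 33.6 CPM. The direction of *Kcnab1* was fixed, since it reached the count filter through *Hs3st4*-positive sums alone.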
